A study of Homo sapiens with 4 samples.

Results

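The nuclear genes of respiratory complex I were examined in human leukaemic cells recovered from the brain and from the spleen of xenografted mice. Members were the protein-coding genes of the deposited count table whose GENCODE symbol starts with NDUFA, NDUFB, NDUFC, NDUFS, NDUFV or NDUFAF, without NDUFA4L2. This gave 47 of 65217 genes, and all 47 passed the filter on low counts. By role, 37 encode nuclear subunits of complex I: 7 of the catalytic core, 9 accessory subunits of the matrix arm, 9 membrane-arm subunits of the NDUFA, NDUFC and NDUFS5 names, 11 of the NDUFB names, and the acyl carrier NDUFAB1, which sits in both arms. Another 8, NDUFAF1 to NDUFAF8, encode assembly factors that are not part of the finished enzyme. The last 2 carry the symbol but are not complex I subunits: NDUFA4 is a subunit of cytochrome c oxidase, and NDUFC2-KCTD14 is a read-through transcript of neighbouring genes.

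The cells were SEM, an acute lymphoblastic leukaemia line of B-cell precursor type whose KMT2A-AFF1 (MLL-AF4) fusion all 4 libraries share. SEM cells grown in 25 mM glucose at 21% oxygen were transplanted into immunodeficient mice of 6 to 10 weeks, and the recovered blasts were purified over Ficoll. There were 2 libraries from brain (collected from the leptomeninges, per the protocol) and 2 from spleen. Each library holds RNA pooled from 5 mice, so the spread between single mice was not measured. Replicates 1 and 2 are independent occasions of the whole experiment, and a brain and a spleen library of the same number share an occasion. The labels name no treatment, and a single cell line was used.

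Complex I is the entry point of the mitochondrial respiratory chain. It takes electrons from NADH, passes them along a chain of iron-sulphur clusters in the matrix arm to ubiquinone, and couples this to the pumping of protons by the membrane arm. The mitochondrial genome encodes 7 subunits, the pumping ones among them, and nuclear genes encode all others. The products of the 2 genomes must thus be joined with the help of assembly factors. In leukaemic blasts, as in other dividing cells, the enzyme also regenerates the NAD needed for biosynthesis. Transcription of its nuclear genes is known to draw on factors such as NRF1, the ETS protein GABPA and YY1.

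The members share a function and lie scattered over 22 chromosomes, and their promoter sequences were compared. RefSeq promoter windows on GRCh38.p14, from 250 bases before to 50 bases after the start, were found for 40 of the 47 members (52 windows, some genes having several). The palindromic core of the NRF1 site, CGCATGCG, lay in the windows of 6 members, which is 11.5% of member windows against 2.02% of all 35116 windows. This core was added to the search after the window of NDUFS6, the member of lowest fold change in brain, had been read. The 6 matches are shown with their flanks, core in capitals, each read 5′ to 3′ on the strand of its gene.
NDUFS6: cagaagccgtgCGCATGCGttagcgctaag
NDUFS7: gttccggtttcCGCATGCGctccgagccgc
NDUFA5: tatgcccatcgCGCATGCGtcaatttttct
NDUFA8: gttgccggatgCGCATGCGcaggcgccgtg
NDUFB4: agagcacttcgCGCATGCGcatatcaccga
NDUFAF5: agccgcgctggCGCATGCGcacaaaaagcg
The flanks differ between the genes, and the core is what the 6 stretches have in common. They lie at chr5:1801351-1801380 (plus strand), chr19:1383822-1383851 (plus), chr7:123557957-123557986 (minus), chr9:122159764-122159793 (minus), chr3:120596167-120596196 (plus) and chr20:13785014-13785043 (plus), in the order printed. The core began 3 bases before the start in NDUFA8 and NDUFAF5, 45 bases before it in NDUFS6, 74 in NDUFS7, 157 in NDUFA5 and 158 in NDUFB4. Log2 fold changes of brain over spleen for these 6 genes, described with the other members further on, went from -0.90 (NDUFS6) over -0.49 (NDUFS7), -0.37 (NDUFB4), -0.33 (NDUFAF5) and -0.31 (NDUFA8) to 0.09 (NDUFA5). NDUFAF8 and NDUFAB1, which follow NDUFS6 as the members of lowest fold change, have no core in their windows.

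Other motifs were searched on both strands of the same windows. A longer form of the NRF1 site, which can overlap the core, was found for 8 members (15.4% of member windows, 8.32% of all). The YY1 letters AAGATGG were found for 10 members (21.2% and 5.84%), among them NDUFA3, NDUFA12, NDUFAF8 and NDUFS7. The ETS letters CCGGAAG were found for 7 (15.4% and 10.3%), the core of the hypoxia response element, ACGTG, for 11 (23.1% and 21.4%), and the GC box GGGCGG for 26 (65.4% and 45.0%). Member windows had a median GC content of 61.0% and all windows 58.7%. A match is a description of these letters and not a measured binding site.

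Depth was 36913437 and 33055465 gene counts for the brain libraries, and 32972842 and 26266136 for those of spleen. The limit that a count of 0 allows, 3 counts, corresponded to 0.0813 to 0.114 CPM. Levels below are CPM, counts per 1e6 counts of the tested genes with TMM factors, in the order brain replicate 1, brain replicate 2, spleen replicate 1, spleen replicate 2. Of 11 B-precursor markers 9 were over 10 CPM in every library, and the list summed to 2693, 2639, 1945 and 2095 CPM. CD3D, CD2, S100A8, S100A9 and SNAP25 were at 0 in every library and all 6 erythroid markers were under 1 CPM. NKG7, CSF1R, AIF1, MBP, SYT1 and PECAM1 were over 10 CPM in every library. Of the estimated counts, mouse transcripts took 2.24% and 1.45% in brain and, in spleen, 4.31% and 6.32%.

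The comparison asks whether leukaemic cells at the 2 sites differ in the nuclear genes of complex I. Summed over the 37 subunits, the level was 2169 and 2083 CPM in brain and 2707 and 3242 CPM in spleen, without overlap. The 8 assembly factors summed to 165 and 161 CPM in brain and to 200 and 211 in spleen, again without overlap. Among the 46 members over 10 CPM in every library, the log2 fold change of brain over spleen went from -0.90 (NDUFS6, 46.3% lower in brain) to 0.14 (NDUFAF7). No member passed the test over all genes. In pooled samples, fewer cells of a type and less RNA per cell cannot be told apart.

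**Figure D1:**
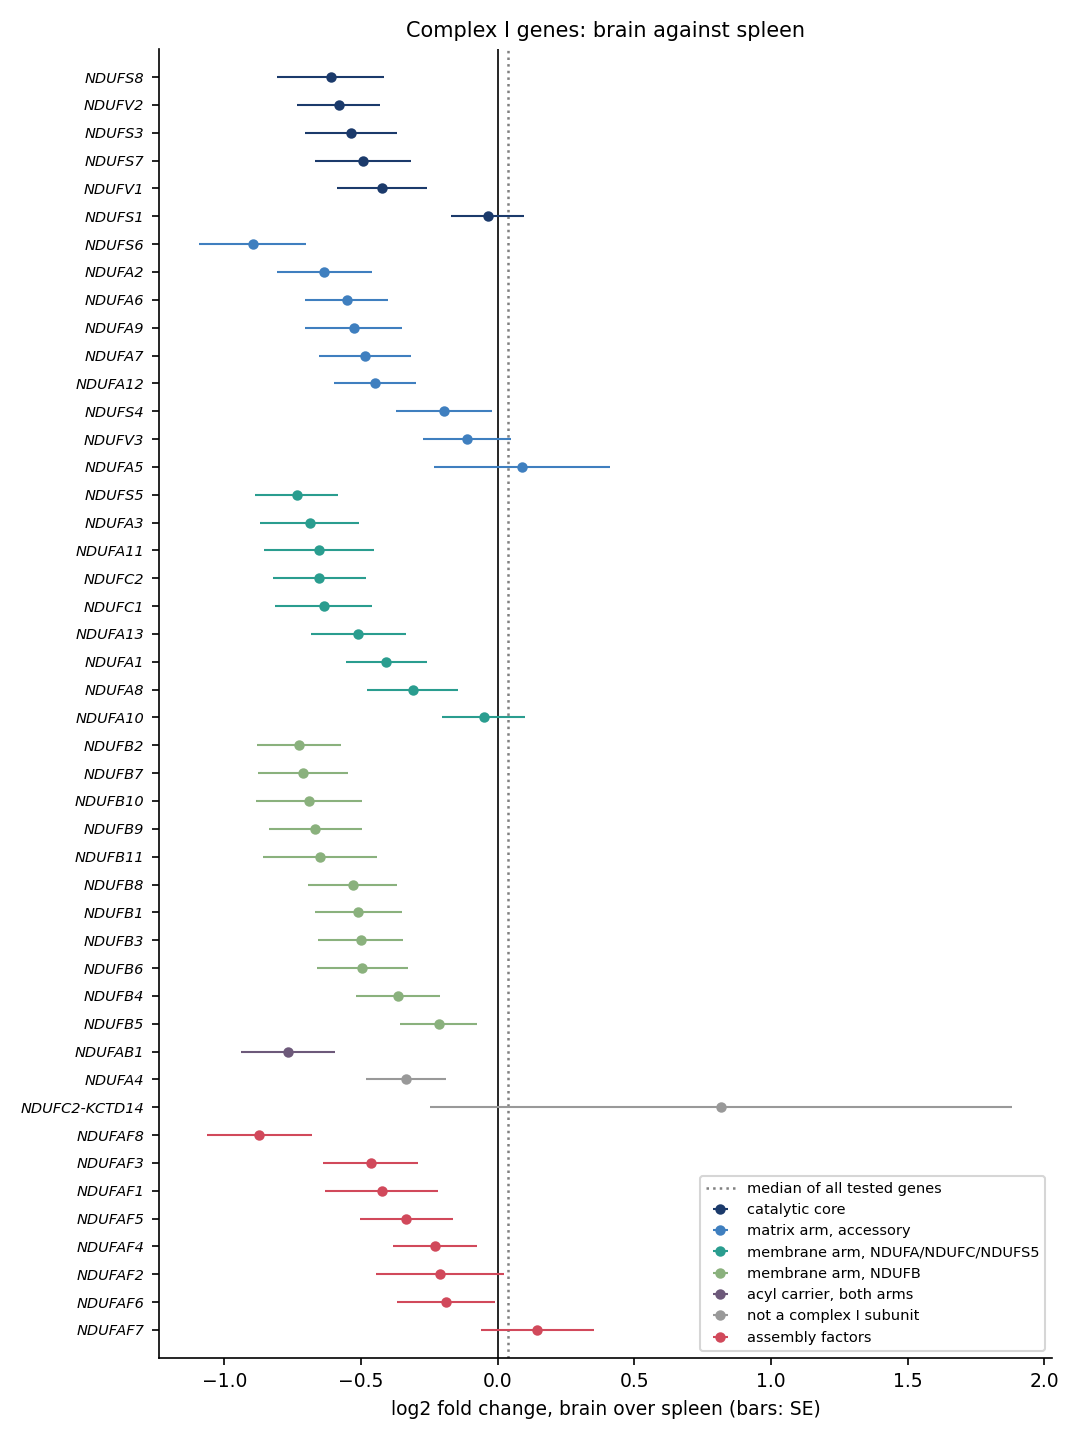
Log2 fold change of brain over spleen for 46 of the 47 members, ordered within each role by fold change (points, bars ± SE from edgeR's quasi-likelihood fit on 2 libraries per group). The dotted line is the median of all tested genes, 0.04, and the points lie to the left of 0 except for NDUFA5, NDUFAF7 and NDUFC2-KCTD14.

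At an adjusted p under 0.05 (edgeR's quasi-likelihood test, Benjamini-Hochberg adjustment over 17075 genes) 0 members were higher and 0 lower in brain, where 2.02% of all tested genes were called, 1.63% higher and 0.387% lower. At an unadjusted p under 0.05 the test gave 31 members lower and 0 higher, against 9.94% of all genes lower and 10.7% higher. DESeq2 called 11 members lower and 0 higher (2.33% of all genes lower and 3.28% higher), and edgeR without the filter on low counts 21 lower and 0 higher (2.47% and 3.67%). With the replicate number as a block 14 members were called lower and 0 higher (3.37% of all genes lower and 7.48% higher). The correlation between the deviations of same-numbered libraries was only 0.0269 across genes. The pairing thus rests on the labels, and values with the block are an alternative to the main test. With 4 libraries the block leaves fewer residual degrees of freedom per gene than the main fit, so its p-values are less secure. The log2 fold change was negative for 44 of 47 members, where it was negative for 46.7% of all genes. Both brain libraries were below both spleen libraries for 40 members, where this held for 26.7% of genes, and above them for 0 members, where it held for 30.2%.

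The count of calls depended on which library was left out. Without spleen replicate 1, 37 members were called lower and 2 higher (19% of all genes lower and 18.9% higher). Without spleen replicate 2, 31 were lower and 0 higher (7.63% lower and 9.64% higher). Without brain replicate 1 or brain replicate 2, 0 were called in either direction. No share over all genes is given for the fits without a brain library, so their 0 calls cannot be read as particular to the members. In each fit with a library left out, the lone library was assumed to vary like the 2 of the other group. The median log2 fold change of the members was -0.67 when spleen replicate 1 was left out and -0.33 when spleen replicate 2 was, and 28 members were called lower in both of those fits (5.79% of all genes tested in both).

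**Figure D2:**
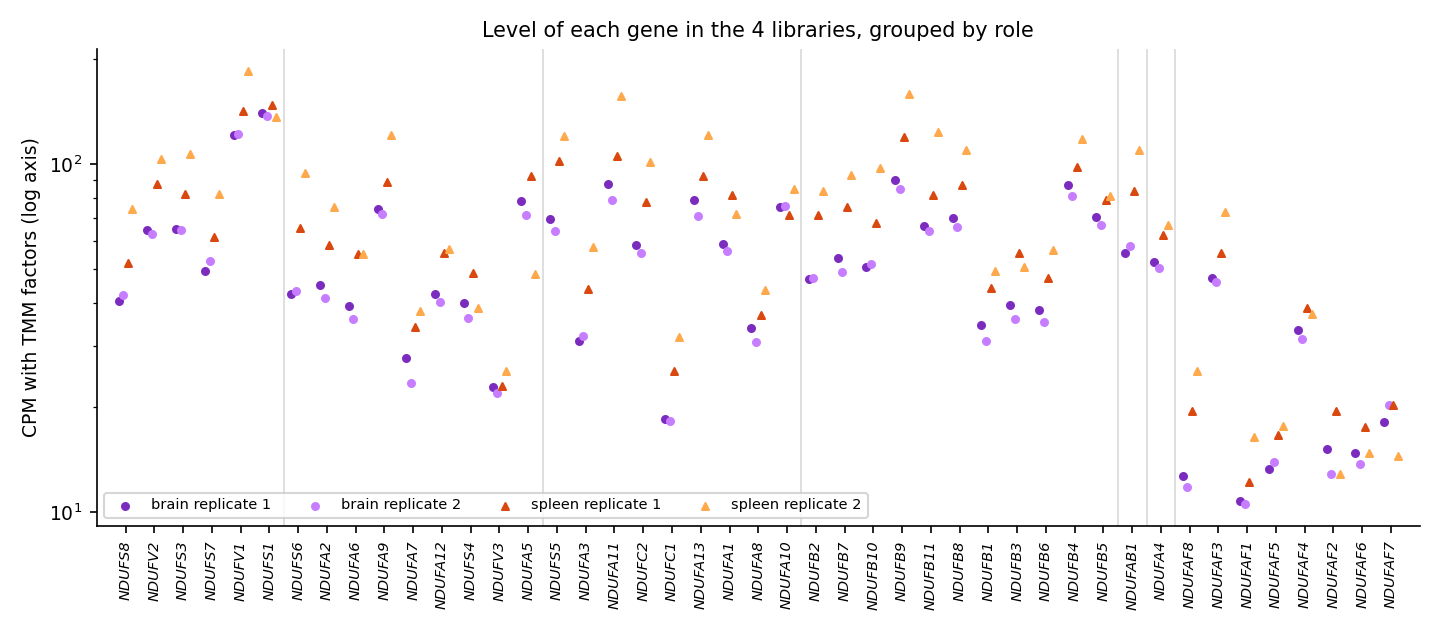
CPM with TMM factors (log axis) of members over 10 CPM in every library, by role, with 1 such member not drawn; circles are the 2 brain and triangles the 2 spleen libraries. For most members the circles lie together below the triangles, and the spleen triangles lie further apart than the circles; NDUFA5 and NDUFAF7 are among the exceptions.

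The catalytic core carries the flavin and the iron-sulphur clusters. All 7 core subunits had a negative log2 fold change, with a median of -0.49 beside 0.04 over all tested genes. NDUFV2, an iron-sulphur subunit of the NADH-oxidising module, had 64.7 and 62.7 CPM in brain and 87.4 and 103 in spleen. Its groups did not overlap. The log2 fold change was -0.58 ± 0.15 (SE, adjusted p = 0.0984 by edgeR, and 0.0460 with the block). NDUFV1, which holds the flavin and the NADH site, had 121 and 122 CPM in brain and 141 and 185 in spleen. NDUFS8 (log2 fold change -0.61), NDUFS3 (-0.54), NDUFS7 (-0.49) and NDUFV1 (-0.42) likewise had both brain libraries below both spleen libraries. NDUFS1, the large iron-sulphur subunit, had overlapping groups. It had 140 and 138 CPM in brain and 148 and 136 in spleen, and its log2 fold change was -0.04 ± 0.13.

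Accessory subunits of the matrix arm brace this core and do not take part in the electron transfer. Of the 9, 8 had a negative log2 fold change, and the median was -0.49. NDUFS6, a zinc-binding subunit added late in assembly, had 42.3 and 43.2 CPM in brain and 65.4 and 93.9 in spleen. The brain libraries were close together and the spleen libraries were both higher and apart from each other. The log2 fold change was -0.90 ± 0.20, the lowest of all members (adjusted p = 0.0667 by edgeR, and 0.00115 with the block). NDUFA2, a small subunit with a thioredoxin fold, had 45.0 and 41.3 CPM in brain and 58.7 and 75.2 in spleen, with a log2 fold change of -0.63 ± 0.17 (adjusted p = 0.108 by edgeR, and 0.0381 with the block). NDUFA6, an LYR-motif protein that binds the acyl carrier, had a log2 fold change of -0.55, NDUFA9 of -0.53, NDUFA7 of -0.49 and NDUFA12 of -0.45. NDUFS4 (-0.20) and NDUFV3 (-0.11) were nearer to 0.

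NDUFA5 stood apart from the other accessory subunits of the matrix arm. It had 78.0 and 71.4 CPM in brain and 92.1 and 48.3 in spleen, so that the brain libraries lay between the spleen libraries. The log2 fold change was 0.09 ± 0.32, with the largest SE of the members over 10 CPM. Its transcripts had the lowest GC content of all members, 33.5%. Without spleen replicate 2 the log2 fold change was -0.29, without spleen replicate 1 it was 0.58, and with a GC and length trend taken out it was -0.04.

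The membrane arm anchors the enzyme, and its nuclear subunits surround the mitochondrially encoded pumps. The 9 subunits of the NDUFA, NDUFC and NDUFS5 names were all negative, with a median log2 fold change of -0.64, and the 11 NDUFB subunits were all negative with a median of -0.53. NDUFS5, a twin-cysteine-motif protein on the intermembrane-space side, had 69.4 and 64.1 CPM in brain and 102 and 121 in spleen. Its log2 fold change was -0.74 ± 0.15, and its adjusted p, 0.0591, was the smallest of the members by edgeR (0.00596 with the block). NDUFA3, a small single-span subunit, had 30.9 and 32.1 CPM in brain and 43.9 and 57.6 in spleen. NDUFA11, a subunit that contacts complex III in the supercomplex, had 87.6 and 78.8 CPM in brain and 106 and 156 in spleen. NDUFC2 had 58.5 and 55.4 CPM in brain and 77.6 and 101 in spleen. None of these 3 had overlapping groups. Their log2 fold changes were -0.69 ± 0.18, -0.65 ± 0.20 and -0.65 ± 0.17 in that order, with adjusted p = 0.0996, 0.138 and 0.0996 by edgeR and 0.0281, 0.0223 and 0.0240 with the block.

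Among the NDUFB subunits both brain libraries were below both spleen libraries for 11 of 11, where this held for 26.7% of all tested genes. NDUFB2 had 46.7 and 46.9 CPM in brain and 71.5 and 83.6 in spleen. Its log2 fold change was -0.73 ± 0.15 (adjusted p = 0.0618 by edgeR, and 0.0102 with the block). NDUFB7, a twin-cysteine-motif subunit, had 53.6 and 49.0 CPM in brain and 75.2 and 93.1 in spleen, with a log2 fold change of -0.71 ± 0.16. NDUFB10, of the same protein class, had 50.5 and 51.7 CPM in brain and 67.8 and 97.2 in spleen, with a log2 fold change of -0.69 ± 0.19. These subunits had brain libraries within a few CPM of each other and a wider gap between the spleen libraries. NDUFB9, an LYR-motif protein, had 90.0 and 84.8 CPM in brain and 120 and 158 in spleen. NDUFB11, encoded on chromosome X, had 66.4 and 64.1 CPM in brain and 81.4 and 123 in spleen. The adjusted p of NDUFB7, NDUFB9, NDUFB10 and NDUFB11 was 0.0742, 0.0934, 0.112 and 0.147 by edgeR, and 0.0115, 0.0149, 0.0188 and 0.0280 with the block. The other NDUFB members had log2 fold changes from -0.53 (NDUFB8) to -0.22 (NDUFB5).

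NDUFAB1 is the mitochondrial acyl carrier protein, bound in both arms of complex I and needed as well for lipoic acid synthesis and iron-sulphur cluster assembly. It had 55.6 and 58.0 CPM in brain and 83.6 and 110 in spleen. The spleen libraries were both above the brain libraries. Its log2 fold change was -0.77 ± 0.17 (adjusted p = 0.0707 by edgeR, and 0.00511 with the block). By contrast, NDUFA10 had 75.1 and 75.4 CPM in brain and 71.2 and 84.8 in spleen, so that the groups overlapped, with a log2 fold change of -0.05 ± 0.15. NDUFA4, the cytochrome c oxidase subunit, had 52.2 and 50.3 CPM in brain and 62.5 and 66.9 in spleen, with a log2 fold change of -0.34 ± 0.15.

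The median log2 fold change was -0.28 for the assembly factors, beside -0.53 for the 37 subunits, and the difference was not tested. NDUFAF8, which stabilises NDUFAF5, had 12.7 and 11.9 CPM in brain and 19.6 and 25.5 in spleen. Its groups did not overlap, and its log2 fold change was -0.87 ± 0.19 (adjusted p = 0.0679 by edgeR, and 0.00513 with the block). NDUFAF5, its partner, had a log2 fold change of -0.33 ± 0.17. NDUFAF3 (-0.46) and NDUFAF4 (-0.23), which act together on the quinone module, NDUFAF1 (-0.42), which acts on the membrane arm, NDUFAF2 (-0.21), a relative of NDUFA12, and NDUFAF6 (-0.19) were also on the negative side. NDUFAF7, a mitochondrial methyltransferase, had 18.1 and 20.3 CPM in brain and 20.3 and 14.5 in spleen. Its groups overlapped, and the log2 fold change was 0.14 ± 0.21. The read-through NDUFC2-KCTD14 had counts of 12 and 19 in brain and 15 and 0 in spleen. Its log2 fold change of 0.82 ± 1.06 rests on these few counts, and reads it shares with NDUFC2 could be split either way.

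The size of the difference was not the same on the 2 occasions. Within occasion 1 the members had a median log2 difference, brain minus spleen, of -0.32, and within occasion 2 of -0.66. The difference was negative for 46 members on occasion 1 and for 43 on occasion 2, and for 42 on both. Of 17075 tested genes it was negative for 8509 on occasion 1 and 7838 on occasion 2, with medians of 0.0016 and 0.061. For NDUFS6 it was -0.63 on occasion 1 and -1.12 on occasion 2. For NDUFB2 it was -0.61 and -0.83, and for NDUFAF8 -0.62 and -1.10. The difference was more negative on occasion 2 for 39 members. No share over all genes is given for the 42 and the 39. Between the replicates, 2 minus 1, the members' median log2 difference was 0.26 for spleen and -0.06 for brain. Within an occasion there is 1 library per site and no test.

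Spleen replicate 2, the library of occasion 2, also stood apart by base composition. Its log2 difference from spleen replicate 1 had a median of -0.50 in the GC-poorest quintile of genes and of 0.24 in the GC-richest. The members went from -0.06 to 0.40 over the same quintiles. Across 46 members, without NDUFC2-KCTD14, GC content and the difference between the spleen libraries correlated at 0.70 (Pearson) and 0.75 (Spearman). For the brain libraries the correlations were 0.20 and 0.20. These points share their 4 libraries and are a description. NDUFA11, with 62.2% GC, was higher in spleen replicate 2 by 0.56, NDUFB11, with 59.1%, by 0.60, and NDUFA5, with 33.5%, was at -0.93.

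**Figure D3:**
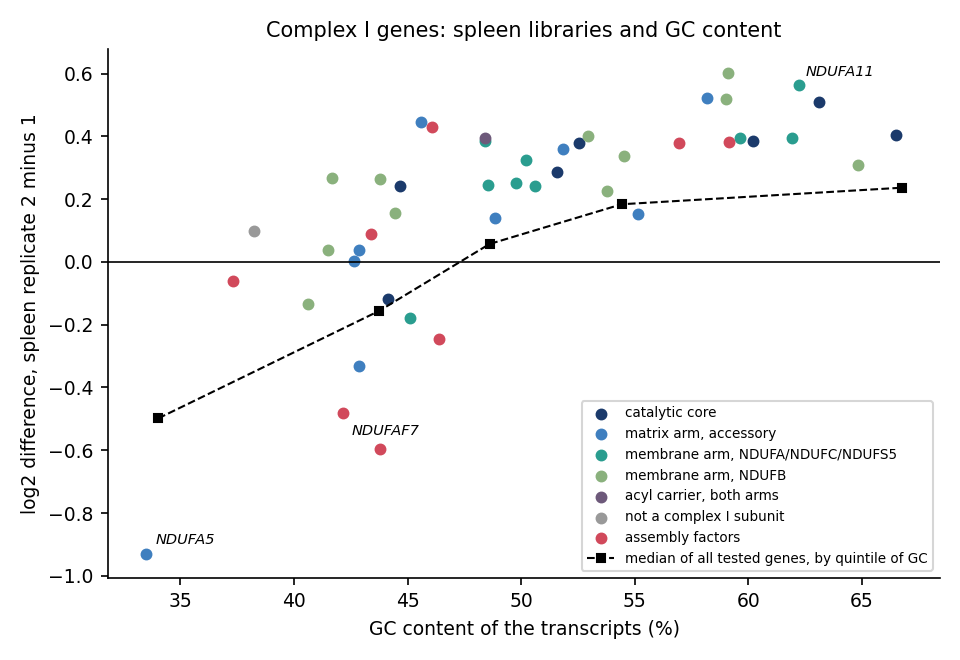
Log2 difference between the spleen libraries (replicate 2 minus replicate 1) against the GC content of the transcripts, for 46 members coloured by role. The dashed line joins the medians of all tested genes in each quintile of GC content, from -0.50 to 0.24, and NDUFA5 is the lowest point.

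Transcript length moved with the comparison of the sites. Members are short: the median transcript length was 766 bases, against 2081 bases for all tested genes, and 37 members lay in the shortest quintile. There the median log2 fold change was -0.14 over all genes and -0.53 over the 37 members, and in the longest quintile it was 0.24 over all genes. Across 46 members the log of the length and the log2 fold change correlated at 0.64 (Pearson) and 0.58 (Spearman), and GC content and the fold change -0.57 and -0.55. NDUFS1, with the longest transcripts of the members at 3324 bases, was close to 0. As an alternative, a smooth trend with length and GC content was removed from each library.

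With the trend removed, the median log2 fold change was -0.28 over the members, -0.33 over the subunits, -0.18 over the assembly factors and 0.02 over all genes. Within the subunits it was -0.20 for the core, -0.32 for the accessory subunits of the matrix arm, -0.35 for the NDUFA, NDUFC and NDUFS5 names of the membrane arm and -0.38 for the NDUFB names. Of the members 3 were called lower and 0 higher, beside 0.919% of all genes lower and 2.37% higher. NDUFS6 had a log2 fold change of -0.60 (adjusted p = 0.0397, edgeR), NDUFS5 of -0.52 (adjusted p = 0.0445) and NDUFB2 of -0.46 (adjusted p = 0.0499). NDUFB2 was just under the threshold. By GENCODE release 44 on GRCh38, NDUFS6 lies at chr5:1801407-1816048, NDUFS5 at chr1:39026318-39034636 and NDUFB2 at chr7:140690777-140722790, all on the plus strand. With the block as well, 5 were called lower (2.57% of all genes lower and 4.8% higher), the same 3 with NDUFAB1 (adjusted p = 0.0268) and NDUFAF8 (adjusted p = 0.0365). NDUFA10 (0.08) and NDUFAF6 (0.01) changed sign with the trend removed, as did NDUFA5.

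**Figure D4:**
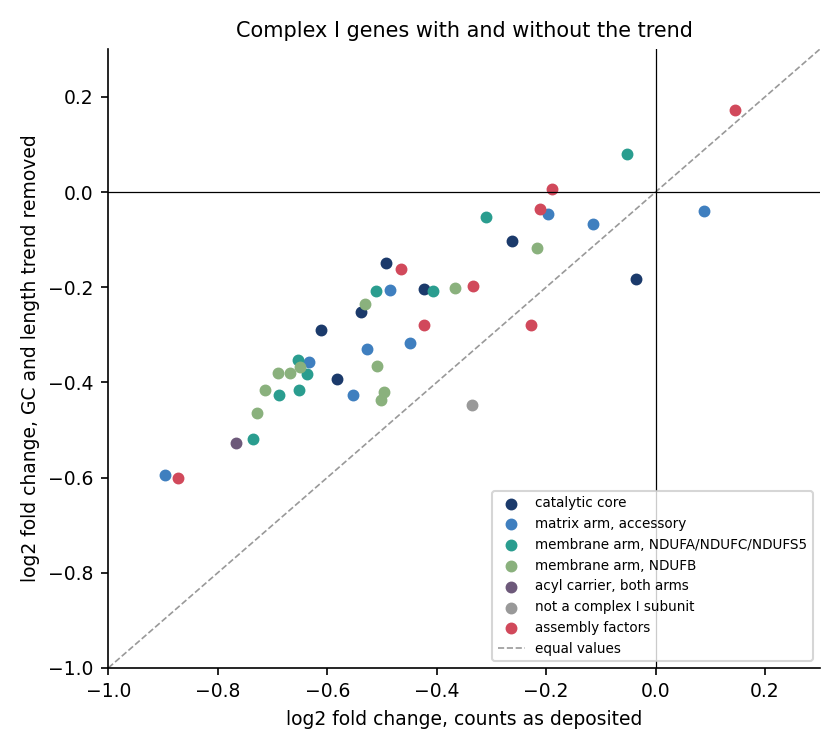
Log2 fold change of brain over spleen with the GC and length trend taken out (y axis) against the value from the counts as deposited (x axis), for 46 members without NDUFC2-KCTD14. Most points lie above the dashed line of equal values, nearer to 0, and NDUFS6 and NDUFAF8 are the 2 lowest.

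The share of mouse transcripts was 1.84% ± 0.560 in brain and 5.32% ± 1.42 in spleen (SD, n = 2). It was highest in spleen replicate 2, the library in which the members were highest too, and its part in the result was not tested. The summed B-precursor markers were higher in brain than in spleen, opposite to the members. Single markers differed: VPREB1 was lower in brain (175 and 161 CPM) than in spleen (186 and 235). DNTT overlapped, with 213 and 252 CPM in brain and 219 and 246 in spleen. The other markers of that list, PAX5 the highest of them, were higher in both brain libraries than in both spleen libraries. Of 9 neural and glial markers 6 were under 1 CPM in every library, among them GFAP and MOG, and the list summed to 186 and 161 CPM in brain and 130 and 115 in spleen, nearly all of it MBP and SYT1. Of 7 stromal and endothelial markers 4 were under 1 CPM in every library, and the list, mostly PECAM1, summed to 75.4 and 52.1 CPM in brain and 35.1 and 34.3 in spleen. The part of these markers in the result was not tested.

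The 7 subunits encoded by the mitochondrial genome were all negative as well, with a median log2 fold change of -0.97. MT-ND2, a proton-pumping subunit, had 1782 and 1840 CPM in brain and 3088 and 4286 in spleen. Its log2 fold change was -1.03 ± 0.18 (adjusted p = 0.0378, edgeR), and it was the only gene of the 7 to pass. This call was lost with the trend removed (adjusted p = 0.0630), with a stricter filter (0.0906), among protein-coding genes alone (0.0531) and without brain replicate 1 (0.0674). It held by DESeq2 (adjusted p = 0.000429), with the block (0.000222), with the block and the trend removed (0.00754) and without brain replicate 2 (0.0394), spleen replicate 1 (7.15e-10) or spleen replicate 2 (3.19e-05). The other log2 fold changes were -1.05 (MT-ND3), -1.02 (MT-ND1), -0.97 (MT-ND4), -0.92 (MT-ND4L), -0.57 (MT-ND6) and -0.42 (MT-ND5). Leaving out a library moved MT-ND5 between -0.73 and -0.10 and MT-ND6 between -0.86 and -0.27, at the low end without spleen replicate 1 and at the high end without spleen replicate 2. MT-ND3 moved between -1.42 and -0.63, MT-ND4 between -1.29 and -0.63 and MT-ND4L between -1.25 and -0.55 in the same settings. Of the 7 genes 5 were called lower with the block and 5 by DESeq2, 3 with the block and the trend removed, and 1 with the trend removed alone (MT-ND1, adjusted p = 0.0495 by edgeR). Summed over the 7 genes the brain libraries had 10210 and 10474 CPM and those of spleen 15712 and 23290. The ratio of this sum to that of the 37 nuclear subunits came to 4.71 and 5.03 for brain and to 5.80 and 7.18 for spleen, so that it was lower in brain without overlap. Both kinds of transcript were thus at their highest in spleen replicate 2.

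**Figure D5:**
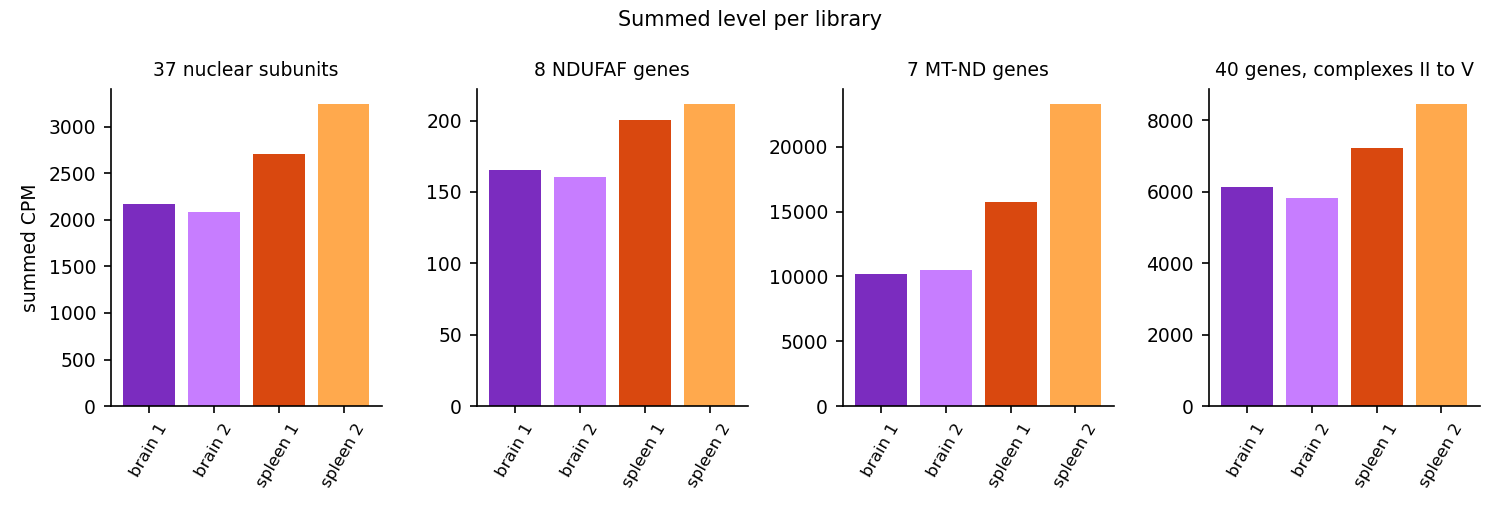
Summed CPM per library (bars from 0) of the 37 nuclear subunits, the 8 NDUFAF genes, the 7 MT-ND genes and 40 nuclear genes of complexes II to V, each on its own axis. In every panel both brain bars are below both spleen bars, and spleen replicate 2 is the tallest.

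Nuclear subunits of complexes II to V, which take electrons from succinate, pass them on to oxygen and make ATP, were all negative as well. Over the 40 genes the median log2 fold change was -0.47, or -0.27 with the GC and length trend removed, and 0 were called in either direction (edgeR, 27 lower and 0 higher at an unadjusted p under 0.05, and 9 lower by DESeq2). With the block 10 were called lower. ATP5F1B, the catalytic subunit of ATP synthase, had 942 and 896 CPM in brain and 995 and 1201 in spleen, and ATP5F1A had 572 and 550 in brain and 616 and 726 in spleen. Their log2 fold changes were both -0.26. The difference between complex I and the other complexes was not tested.

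Lists of genes that build or control complex I were examined next, and their difference from the members was not tested. Of 13 further assembly factors 10 were negative, 0 were called (edgeR, 3 lower at an unadjusted p under 0.05, 0 by DESeq2), and the median log2 fold change was -0.29 (-0.12 with the trend removed, -0.18 without spleen replicate 2, -0.44 without spleen replicate 1). ACAD9, which works with NDUFAF1 and ECSIT in early membrane-arm assembly, had a log2 fold change of -0.44 ± 0.16, and TIMMDC1, an assembly factor of the membrane arm, of -0.43 ± 0.15. Of 14 genes for iron-sulphur cluster assembly 13 were negative, and 0 were called (edgeR, 5 lower at an unadjusted p under 0.05, 2 by DESeq2). Their median log2 fold change was -0.30 (-0.24 with the trend removed, -0.23 without spleen replicate 2, -0.49 without spleen replicate 1). HSPA9, the chaperone of the pathway and its most abundant gene, had a log2 fold change of -0.23 ± 0.13. The ferredoxin FDX2 (log2 fold change -0.80) and the glutaredoxin GLRX5 (-0.65) were among the genes called lower with the block (3.37% of all genes lower). Neither was called by the main test (adjusted p = 0.0919 and 0.122, edgeR). With the block and the trend removed both calls were lost (adjusted p = 0.120 and 0.0733, edgeR).

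Of 13 regulators of mitochondrial biogenesis 12 were tested, 0 were called by edgeR (0 at an unadjusted p under 0.05, 0 by DESeq2), and the median was -0.10 (-0.05 without spleen replicate 2). NRF1, whose site is named above, had 42.0 and 43.2 CPM in brain and 43.3 and 58.7 in spleen. YY1 had a log2 fold change of -0.11 and TFAM, the packaging factor of mitochondrial DNA, of 0.12. GABPA had 89.9 and 93.6 CPM in brain and 83.2 and 36.3 in spleen. It was called higher with the block (adjusted p = 0.00888) and not without it (adjusted p = 0.493, edgeR), and without spleen replicate 2 its log2 fold change was 0.15 in place of 0.62. With the trend removed the log2 fold change of GABPA was 0.26 (adjusted p = 0.321, edgeR). The call with the block was lost once the trend was removed as well (0.28, adjusted p = 0.253). Of 6 genes for proteases of the matrix and inner membrane and the unfoldase CLPX that serves one of them, 0 were called (edgeR, 1 lower at an unadjusted p under 0.05, 0 by DESeq2), with a median of -0.13 (-0.05 with the trend removed, -0.02 without spleen replicate 2, -0.25 without spleen replicate 1). YME1L1 and AFG3L2, membrane-bound proteases, had log2 fold changes of 0.26 ± 0.14 and -0.20 ± 0.14. NDUFA4L2, the gene left out by the rule, had counts of 45 and 59 in brain and 28 and 29 in spleen, with a log2 fold change of 0.57 ± 0.36.

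Levels of different genes were compared per length, as TPM rescaled to human transcripts. This was possible for the 44 members whose transcripts sum to within 5% of the gene count, and not for NDUFA6, NDUFS7 and NDUFC2-KCTD14. The subunits had a median of 145 TPM (16.5 to 336 over 35 genes) and the assembly factors of 30.2 TPM (14.0 to 104 over 8). NDUFA11 had 286 and 272 TPM in brain and 333 and 453 in spleen, and NDUFS5 had 245 and 241 in brain and 348 and 373 in spleen. NDUFB1 had 247 and 238 TPM in brain and 309 and 311 in spleen. The ranges of these 3 highest members overlapped. At the low end NDUFAF1 had 12.4 and 13.7 TPM in brain and 14.3 and 15.5 in spleen, and NDUFV3 had 17.4 and 16.8 in brain and 16.3 and 15.7 in spleen. NDUFV3 was the lowest subunit, below every other subunit in every library. Its TPM was higher in both brain libraries than in both spleen libraries, opposite to its log2 fold change of -0.11 from the counts. The same held for NDUFS1, with 63.4 and 64.1 TPM in brain, 58.1 and 47.5 in spleen, and a log2 fold change of -0.04.

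The leading transcript held at least 80% of a gene's TPM in every library for 15 of these 44 members. It was annotated as protein-coding for 40 and was the Ensembl canonical transcript for 28. For 4 members (NDUFA9, NDUFAF4, NDUFAF6 and NDUFC1) it was a retained intron, a target of nonsense-mediated decay or a transcript without a defined coding sequence. Of 86 transcripts with a mean share of at least 10%, 2 had shares that did not overlap between the groups and differed by at least 10 percentage points, and both belong to NDUFS3. The canonical NDUFS3-201 held 69.6% and 71.3% of the gene's TPM in brain and 55.8% and 53.2% in spleen. The shorter NDUFS3-203, without a defined coding sequence, held 19.7% and 14.5% in brain and 34.8% and 39.4% in spleen. On the TPM scale NDUFS3-201 had 87.7 and 93.6 in brain and 96.1 and 110 in spleen, while NDUFS3-203 had 24.8 and 19.0 in brain and 59.9 and 81.4 in spleen. Between the sites the difference was thus larger for the shorter transcript. These shares are estimates from the authors' quantification and have no test. How many transcripts of all genes meet the same limits was not counted, so the 2 of 86 cannot be read as particular to the members.

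Near copies and overlapping genes limit what some counts mean. The table holds 63 pseudogenes of the members, of which 61 had fewer than 10 counts over all libraries. NDUFAF4P3 had 10 counts in all, and NDUFV2P1 had 150 and 137 counts in brain and 187 and 110 in spleen. On the annotation 25 members overlap a gene on the opposite strand and 18 a gene on the same strand. NDUFS6, NDUFS5, NDUFAB1, NDUFAF8, NDUFB7 and NDUFB10 overlap none. NDUFB2 overlaps 1 gene on the same strand and 2 on the opposite strand, with an opposite-strand level of up to 76.2% of its CPM. The highest such levels were 1372% (NDUFA7), 931% (NDUFAF1), 516% (NDUFC1), 515% (NDUFAF7) and 258% (NDUFA2). The strand option of the quantification is not known, and the part of overlapping genes in these counts was not tested. NDUFS3, whose transcript shares differed between the groups, overlaps 2 genes on the same strand and 3 on the opposite strand. The part of these genes in its transcript shares was not tested.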

How the data were processed

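RNA of human SEM cells from mouse brain (2 libraries) and spleen (2 libraries) was sequenced from stranded libraries of poly(A) RNA, per the labels. The submitters' processing notes name kallisto 0.42.4, cutadapt 1.5, bcl2fastq 1.8.4, DESeq2 and the builds GRCh38 and GRCm38; settings, strand option and annotation release, not given in the sources used here, were taken from nowhere else. The authors deposited a gene table of whole-number counts, without normalisation, and transcript files with estimated counts and TPM over both species. A deposited log2 table was not used, and 2 columns of values that match no sample were not used.

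Symbols, positions, GC content and length came from GENCODE release 44 on GRCh38, which held 56322 identifiers (86.4%). GC and length were known for 97.8% of tested genes and for all 47 members. For NDUFA6, NDUFS7 and NDUFC2-KCTD14 they came from transcripts that sum to 7.97%, 86.2% and 128% of the gene count. The GC and length of these genes are thus less certain, and the trend was removed with them all the same. NDUFA6 and NDUFS7 also entered the correlations across members. Genes passing filterByExpr (17075) were tested with edgeR 4.0.16 (R 4.3.3), quasi-likelihood, robust, TMM factors, Benjamini-Hochberg adjustment, called at 0.05; the SE is the one implied by the test statistic. CPM are scaled to 1e6 over tested genes, and differences between single libraries are log2 after adding 0.05 CPM. TPM was summed per gene and rescaled to 1e6 over human transcripts. Alternatives were DESeq2 1.42.0, RLE factors, other filters, the replicate block, a trend with GC and length removed (mgcv 1.9.3), gene sums of the transcript files and each library left out. The edgeR and DESeq2 fits were checked on simulated data with the same spread in every library and no trend with GC or length. This does not cover the wider spread and the GC trend of the real spleen libraries. Fits with a library left out, and the block together with the trend, were not simulated. An exact permutation test of 2 libraries against 2 cannot give a p under 0.333, so none was used.

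The treatment protocol in the labels ties replicate numbers 1 and 2 to independent occasions of the experiment, and this was taken to pair the libraries. Across genes, the deviations from the group means correlated at 0.0269 (Pearson) and -0.0149 (Spearman) between libraries of 1 number. Sampling noise was exceeded within both groups (mean chi-square 9.34 per gene for brain, 64.0 for spleen), and the libraries were counted as replicates on the word of the labels. The floor of 3 counts covers counting error alone, because no molecular identifiers are named and PCR copies are not independent molecules.

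The members, the gene lists and the rule for named genes were chosen with earlier results of these data known. The rule names members called in either direction with or without the block, the 3 of largest and smallest fold change, the 3 of highest and 2 of lowest TPM, and in other lists the called genes or the 2 of highest level. FDX2, GLRX5, NRF1, GABPA and the transcripts of NDUFS3 were chosen after their values were seen. Promoter windows are from RefSeq (GRCh38.p14); protein sequences were not used here. Values of 1 member and of 2 genes of other lists are not reported here by name; counts, sums and medians include them.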

Additional observations from a re-analysis of the deposited data

How the results depend on the processing

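Of the 47 members 41 had a negative log2 fold change with the counts as deposited and in all 13 other settings, and 6 changed sign in some setting: NDUFA5 (-0.041 with the GC and length trend removed, -0.044 with the replicate block as well, -0.29 to 0.58 with a library left out), NDUFA10 (0.081, 0.081, and -0.22 to 0.092), NDUFAF6 (0.0062 with the trend removed, 0.015 with the block as well), and, with a library left out, NDUFAF7 (-0.063 to 0.36), NDUFC2-KCTD14 (-0.041 to 6.82) and NDUFAF2 (-0.47 to 0.070). Members called lower numbered 0 with RLE factors, a stricter filter (a mean of 5 CPM), protein-coding genes alone and gene sums of the transcript files, 11 by DESeq2, 21 without a filter (2.47% of all genes lower), 14 with the replicate block, 3 with the trend removed, 5 with the block and the trend removed, and 0 to 37 with a library left out. Members called higher numbered 0 in these settings except for 0 to 2 with a library left out; these 2, without spleen replicate 1, were NDUFA5 and NDUFC2-KCTD14. The median over the members was -0.28 with the trend removed, -0.27 with the block and the trend removed and -0.67 to -0.33 with a library left out; over the subunits it was -0.33, -0.32 and -0.74 to -0.34; over the assembly factors it was -0.18, -0.18 and -0.34 to -0.26, -0.31 with RLE factors, -0.31 by DESeq2 and -0.25 with the stricter filter. RLE factors and DESeq2 moved the members' median to -0.53. Over all genes, the calls (higher, lower) were 957 (560, 397) by DESeq2, 2123 (1269, 854) without a filter, 90 (82, 8) with the stricter filter, 201 (184, 17) among protein-coding genes, 1853 (1278, 575) with the replicate block, 562 (405, 157) with the trend removed, 1257 (819, 438) with both, and 404 to 6807 (297 to 3392, 107 to 3415) with a library left out. The cause of these changes was not tested. After the data had been seen, TPM was also summed without transcripts under 300 bases: NDUFB5, with 118, 284, 132 and 133 TPM, then had 98.2, 98.8, 122 and 107. With 2 libraries per site, the SE of the 46 members over 10 CPM went from 0.134 to 0.321, and for NDUFC2-KCTD14, with 0 to 19 counts, it was 1.06.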
